A study of Mus musculus with 6 samples.

Results

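Solute carriers are membrane proteins that move ions, sugars, amino acids, metals, nucleotides and metabolites across the plasma membrane or into organelles. They work as exchangers, cotransporters or uniporters, and most draw on gradients that ion pumps maintain. In the stria vascularis, the epithelium that lines the side of the cochlear duct and supplies potassium to endolymph, carriers feed a tissue with high sodium pump activity and many mitochondria. The genes described here are those with a symbol beginning with Slc and a digit whose probe set averaged 8.5 or more (log2) over the 3 wild-type arrays. Where a gene had several probe sets, the one with the highest 6-array mean stood for it. The Slc26, Slc38 and Slc41 families and Slc12a2, Slc45a2, Slc2a1 and Slc4a1 were left out. This gave 70 of the 347 Slc genes on the array, out of 18193 genes with a probe set of their own. Of the other eligible Slc genes, 251 lay below that level, and 12 genes at or above it belonged to the families and genes left out.

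RNA came from the stria vascularis of wild-type mice and of mice with a mutation in Esrrb (Errb in the labels), which encodes estrogen-related receptor beta. The mutant was made by a conditional knock-out strategy. The sources used here give neither the promoter driving recombination nor the strain. Each of the 6 samples, 3 per genotype, pooled 10 mice and was hybridised to 1 Affymetrix array. The label of wild-type replicate 1 adds an age, postnatal day 3 to 5, which the other labels leave out. The design text names inner ears as the pooled tissue, whereas the sample labels, followed here, name stria vascularis.

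Values are log2 expression, and each difference is mutant minus wild type within a same-numbered pair of arrays, given as the mean ± SD over pairs (n = 3). The test was limma's, with the replicate pair as a block, and its p-values were adjusted over 45037 probe sets (Benjamini-Hochberg, threshold 0.05). Nothing in the labels says that the pools came from separate litters or dissections, so p-values measure only the spread between these samples. The number of arrays limits the precision. Array medians ran from 6.07 to 6.95 and were alike within pairs, so levels were compared within pairs. The 3′ to 5′ gap of the Gapdh control probe sets, a measure of RNA integrity, was 2.28 and 2.57 (log2) in wild type and mutant of pair 1. On the wild-type and mutant arrays it was 0.21 and 0.16 for pair 2, and -0.04 and 0.51 for pair 3. The mutant array had the larger gap in pairs 1 and 3 and the smaller in pair 2. The Actb control probe sets had the same order, with 1.01 and 1.35 (pair 1), 0.52 and 0.47 (pair 2) and 0.18 and 0.49 (pair 3). The part of RNA integrity in the differences was not tested. In pair 1, 34.2% of all probe sets, and 12 of the 70 carriers, had exactly equal values on both arrays. This holds their differences at 0 there and can narrow their spread.

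Cell type markers checked the tissue label. In wild type the mean level over the list was 8.588 to 9.502 for marginal cell markers, 8.45 to 9.39 for intermediate cells and melanocytes and 9.61 to 10.76 for basal cells. Spiral ligament fibrocyte markers were present too, at 10.58 to 12.02, so a carrier cannot be assigned to strial cells alone. In the mutant the marginal cell list was at 7.52 to 8.45. All 13 of its measured genes were lower on average, with a median difference of -0.58. That list includes Esrrb, the mutated gene. Its chosen probe set differed by 0.07, -0.31 and 0.02 in pairs 1 to 3 (-0.07 ± 0.21, adjusted p = 0.856). Melanocyte markers were lower in 12 of 15, with a median of -0.60. Basal cell markers, at 9.08 to 10.29, were lower in 5 of 7, with a median of -0.37. Endothelial markers were lower in 12 of 12, with a median of -0.14. Past the test as lower were 3 marginal cell genes and 1 basal cell gene, Gjb6. The melanocyte and endothelial lists had 0, and over all genes 0.148% passed in either direction. Neuron markers were higher in 11 of 12 genes (list mean 5.53 to 6.18 in wild type and 5.84 to 7.17 in the mutant), with a median of 0.97 in pair 1 and 0.19 and 0.24 in pairs 2 and 3. Macrophage markers were higher in 12 of 12 (8.26 to 9.03 in wild type and 8.18 to 9.44 in the mutant). Spindle and root cell markers were higher in 4 of 6 (median 0.12) and cartilage and bone markers in 7 of 9 (median 0.05). Schwann cell and glia markers were higher in 4 of 7, with medians of 0.40, -0.06 and 0.06 in pairs 1 to 3. The part of these shifts in the values below was not tested. In bulk RNA, fewer cells of a type and less RNA per cell cannot be told apart.

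No carrier differed between the genotypes beyond the test's threshold. Of the 70, 0 passed as lower and 0 as higher, against 0.215% (lower) and 0.0% (higher) of the 5115 genes at this level, and 0.0933% of all probe sets in either direction. The smallest adjusted p was 0.308. Of all 347 Slc genes 2 passed, both lower, and both were among the families and genes left out. At an unadjusted p under 0.05 there were 8 carriers, 5 lower and 3 higher, a share of 11.4% against 9.81% of genes at this level (4.97% lower and 4.85% higher). Without the pair as a block 0 passed, where 0.00666% of all probe sets did, and 0 had an unadjusted p under 0.05, where 0.209% did. Differences ran from -0.41 to 0.38, with a median of -0.006 and pair medians of -0.046, 0.019 and 0.067. The median over all genes at this level was 0.028, and that of the 251 less expressed Slc genes was -0.025. In the paired fit, the 95% intervals of all 70 carriers lay within a 2-fold change either way. Those of 64 lay within 0.5 on the log2 scale, or 1.41-fold. The widest bounds of that fit were -0.67, for Slc7a5, and 0.78, for Slc1a2. Without the block, intervals such as those of Slc31a1 (-1.35 to 0.53) and Slc39a7 (-2.02 to 1.85) reached past 2-fold.

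**Figure D1:**
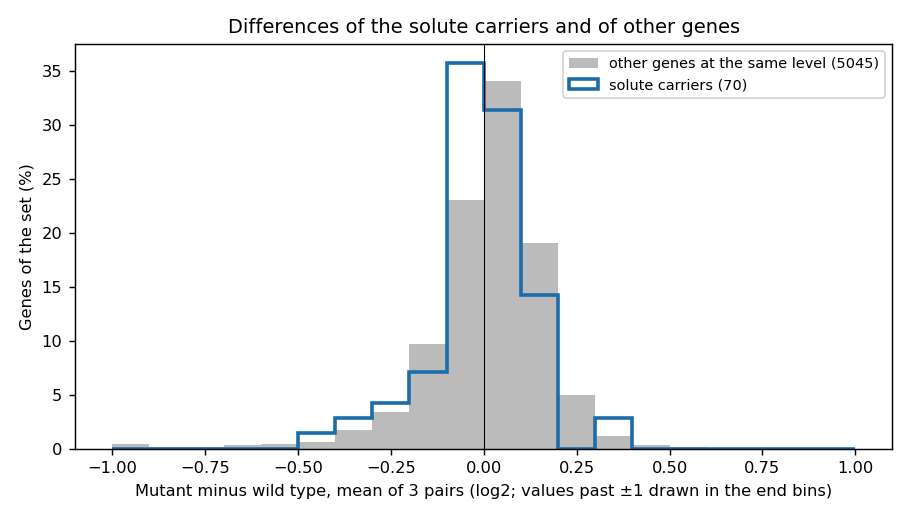
The histogram shows the mean difference, mutant minus wild type (log2), as a share of the 70 solute carriers (outline) and of the 5045 other genes at the same level (grey), in bins of equal width. The carriers lie between -0.41 and 0.38, inside the span of the other genes.

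Of the 70 carriers, 36 were lower and 34 higher on average, a lower share of 51.4% against 40.2% of all genes at this level. In all, 12 of the 70, or 17.1%, were lower in all 3 pairs and 8, or 11.4%, were higher in all 3. The same shares over all genes at this level were 12.5% and 18.5%. The wild-type level chose the members, and it is part of each difference, so genes low in wild type and high in the mutant could not enter. With the mutant mean held to 8.5 instead, 70 genes entered, 66 of them shared, of which 32 were lower and 38 higher. The members nearest above the threshold were Slc35e1, Slc29a1 and Slc30a1, with wild-type means of 8.51, 8.52 and 8.53. Those nearest below it were Slc25a22, Slc39a8 and Slc30a6, at 8.48, 8.47 and 8.46. Their differences were -0.05, -0.18 and 0.08 inside and -0.03, 0.05 and -0.02 outside.

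**Figure D2:**
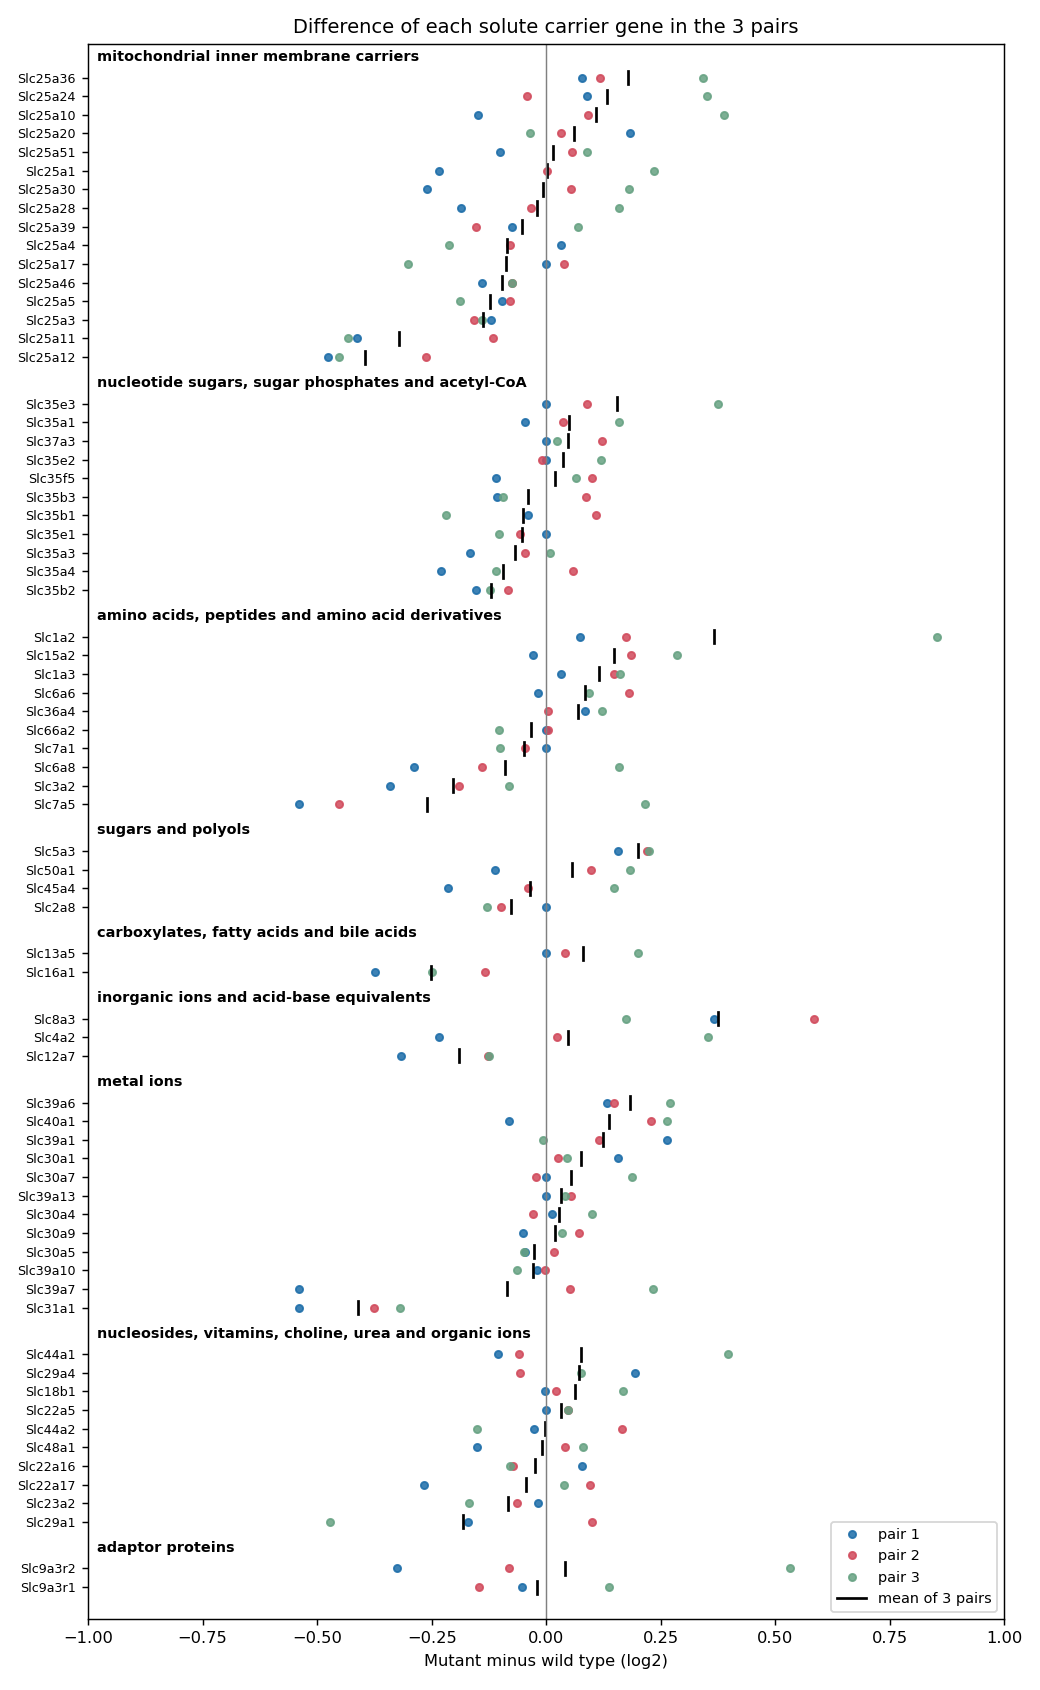
Coloured points give the difference, mutant minus wild type (log2), of each of the 70 genes in pairs 1 to 3, and black bars give the mean of the 3 pairs, with genes grouped by substrate. Few genes have all 3 points far to one side of 0; Slc31a1, Slc25a12 and Slc25a11 are the lowest such genes, and Slc8a3 and Slc5a3 the highest.

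Metal ion carriers held the largest negative difference. Slc31a1, the high-affinity copper importer, was at 8.711, 9.770 and 8.997 on wild-type arrays 1 to 3 and at 8.171, 9.395 and 8.678 on the mutant arrays. The mutant was the lower array in every pair, although the ranges of the genotypes overlapped. The difference was -0.41 ± 0.12, or 1.33-fold lower, with a 95% interval of -0.60 to -0.22, and it did not pass (adjusted p = 0.308; 0.189 to 1 over the alternatives). A second probe set of Slc31a1 was also lower in every pair (-0.66 ± 0.40, adjusted p = 0.439).

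Of the 12 metal carriers, 4 were lower and 8 higher, with a median of 0.030. Slc39a6, a zinc importer, was higher in all 3 pairs (0.13, 0.15 and 0.27), from 9.55, 9.73 and 9.38 in wild type to 9.69, 9.88 and 9.65 in the mutant. Its difference of 0.18 ± 0.07 did not pass (adjusted p = 0.689), and its 3 other probe sets averaged -0.02 to -0.13. Slc39a10, another zinc importer, varied little between arrays, at 9.58, 9.56 and 9.51 in wild type and 9.56, 9.56 and 9.44 in the mutant, a difference of -0.03 ± 0.03. Its second probe set was lower in every pair (-0.31, -0.07 and -0.56). The zinc efflux carrier Slc30a1 differed by 0.08 ± 0.07. The other zinc carriers of the Slc30 family ranged from -0.03 ± 0.04 for Slc30a5 to 0.06 ± 0.12 for Slc30a7. Slc39a1, a plasma membrane zinc importer, differed by 0.12 ± 0.14, and Slc40a1, the iron exporter ferroportin, by 0.14 ± 0.19, with -0.13 ± 0.24 on its second probe set. The zinc carrier Slc39a7 moved in both directions, with -0.54 in pair 1, 0.05 in pair 2 and 0.23 in pair 3.

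The RefSeq sequences upstream of the genes with the largest negative and largest positive difference are shown as reference for what lies in front of each start site. Both are the 250 bases before the annotated start in build GRCm38.p6, read 5′ to 3′ on the gene's strand. The first, for Slc31a1 at chr4:62360451-62360700 on the plus strand, is 62.8% G and C. The second, for Slc8a3 at chr12:81333181-81333430 on the minus strand, is 56.0% G and C.
Slc31a1: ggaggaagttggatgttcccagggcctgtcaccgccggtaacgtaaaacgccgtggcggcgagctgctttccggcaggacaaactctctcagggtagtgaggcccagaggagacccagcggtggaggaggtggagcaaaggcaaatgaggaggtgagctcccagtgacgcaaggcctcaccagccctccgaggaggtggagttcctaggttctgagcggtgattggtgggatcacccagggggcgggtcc
Slc8a3: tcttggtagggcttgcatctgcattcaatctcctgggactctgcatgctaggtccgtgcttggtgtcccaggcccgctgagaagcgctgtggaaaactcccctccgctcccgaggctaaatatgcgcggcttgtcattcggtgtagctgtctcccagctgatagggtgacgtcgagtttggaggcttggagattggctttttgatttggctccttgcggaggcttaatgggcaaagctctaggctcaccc

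Estrogen-related receptors bind the letters TNAAGGTCA, an extended form of the nuclear receptor half-site AGGTCA. Windows of 250 bases before to 50 after the start were listed for 58 of the 70 genes, 77 windows in all, and both strands were searched. TNAAGGTCA was in 0 of these 77 windows and in 1.28% of all 32851 windows of the table. AGGTCA, which TNAAGGTCA contains, was in 9 of the 77, or 11.7%, against 16.3% of all windows. Slc12a7, whose probe set was lower in all 3 pairs, held it on its own strand at chr13:73763643-73763672, 5 and 42 bases before 2 annotated starts. Slc29a1 held it in the windows of 2 starts on the minus strand, at chr17:45593006-45593035 and, in the opposite orientation, at chr17:45593642-45593671. These stretches are shown because they belong to the genes with the most negative differences among those holding the half-site, which is in capitals.
Slc12a7: ggcgggcaggtgAGGTCAcgtggcgggcaa
Slc29a1, first stretch: ttctggaactggAGGTCAaggaaaggaact
Slc29a1, second stretch: gcacctgagagcTGACCTggctgccacagg
The other matches lay in windows of Slc18b1, Slc1a2, Slc25a39, Slc37a3 and Slc4a2, whose differences were 0.06, 0.37, -0.05, 0.05 and 0.05. A match is a description of letters and not a binding site.

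Mitochondrial carriers of the Slc25 family move nucleotides, phosphate and metabolites across the inner membrane and formed the largest group. Of its 16 genes 10 were lower and 6 higher, with a median of -0.036, and 5 were lower and 1 higher in all 3 pairs. Slc25a12, the aspartate-glutamate carrier, read 8.24, 9.07 and 8.36 in wild type and 7.76, 8.81 and 7.91 in the mutant. Slc25a11, the oxoglutarate carrier, read 8.10, 9.70 and 9.69 in wild type and 7.68, 9.58 and 9.26 in the mutant. These carriers are the membrane partners of the malate-aspartate shuttle, which brings reducing equivalents into mitochondria, and both were lower in every pair. Their differences were -0.40 ± 0.12 and -0.32 ± 0.18, or 1.32-fold and 1.25-fold lower, and neither passed (adjusted p = 0.322 and 0.530). Other probe sets of Slc25a12 read -0.16 ± 0.14 and 0.10 ± 0.21, so the probe sets of this gene differ in sign.

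The adenine nucleotide translocases exchange ADP for ATP and are encoded by Slc25a4 and Slc25a5, close relatives whose probe sets may share signal. The chosen Slc25a4 probe set read 11.94, 12.83 and 12.46 in wild type and 11.98, 12.75 and 12.25 in the mutant, a difference of -0.09 ± 0.12. A pair of other Slc25a4 probe sets at a similar level gave larger differences, -0.25 ± 0.12 and -0.25 ± 0.07, each lower in all 3 pairs. Every pair was lower for Slc25a5 (-0.12 ± 0.06), and 6 of its 7 other probe sets were lower, down to -0.29 ± 0.20. Slc25a3, the phosphate carrier, read 11.98, 12.61 and 12.43 in wild type and 11.86, 12.46 and 12.29 in the mutant. Its difference of -0.14 ± 0.02 had the smallest spread of all 70 genes and did not pass (adjusted p = 0.731). Slc25a46, a carrier relative of the mitochondrial outer membrane, was lower in all 3 pairs too (-0.10 ± 0.04).

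The other Slc25 genes were close to 0 or varied in sign between pairs. Slc25a36, a pyrimidine nucleotide carrier, was the only one higher in all 3 pairs (0.08, 0.12 and 0.34), and its other probe sets read -0.31 ± 0.41 and 0.15 ± 0.30. The calcium-regulated ATP carrier Slc25a24 differed by 0.13 ± 0.20, but its second probe set was lower in every pair (-0.19 ± 0.03). The dicarboxylate carrier Slc25a10 differed by 0.11 ± 0.27 and the carnitine-acylcarnitine carrier Slc25a20 by 0.06 ± 0.11. The citrate carrier Slc25a1 read -0.23, 0.0014 and 0.23 in pairs 1 to 3, a mean of 0.0007. Slc25a39, required for mitochondrial glutathione, differed by -0.05 ± 0.11, and Slc25a51, the carrier for NAD, by 0.02 ± 0.10. The iron carrier Slc25a28 differed by -0.02 ± 0.17, Slc25a17, which resides in peroxisomes, by -0.09 ± 0.19 and Slc25a30 by -0.008 ± 0.23.

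**Figure D3:**
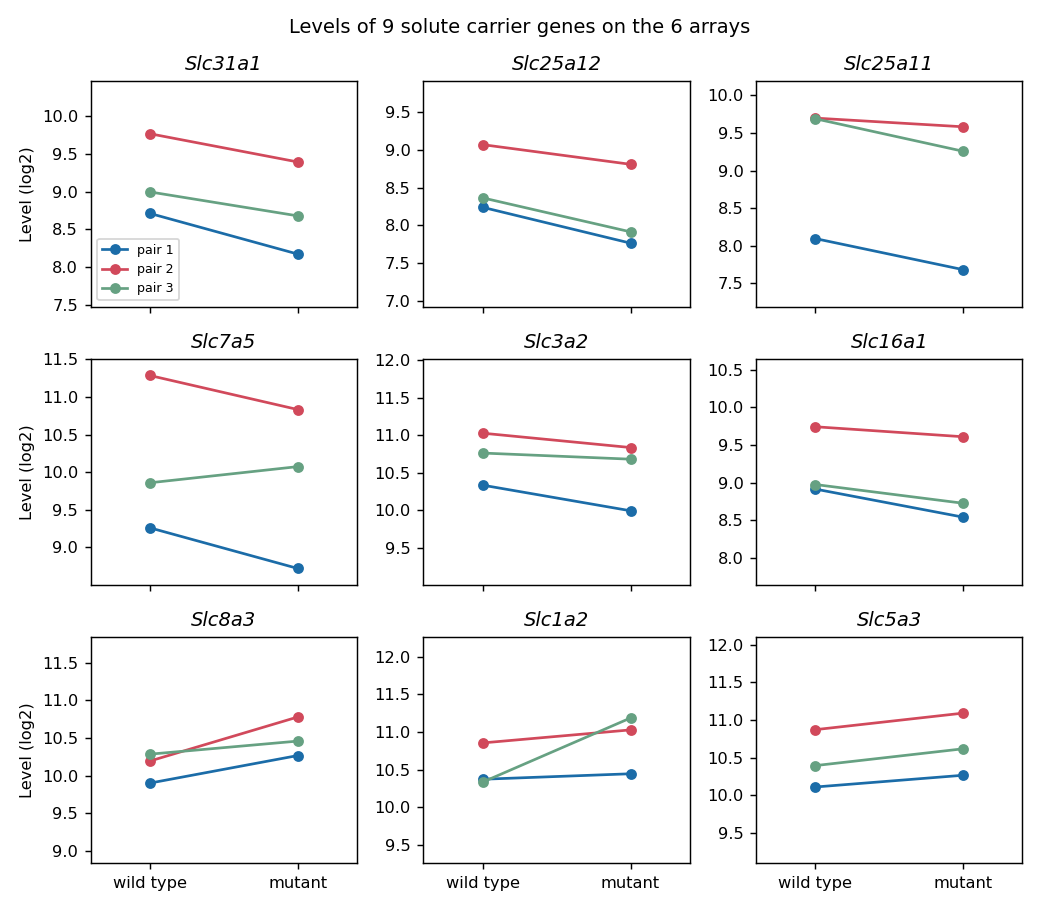
Levels (log2) of 9 genes are plotted on the wild-type and mutant arrays, with a line joining each same-numbered pair; every panel spans 3 log2 units. All lines slope down for Slc31a1, Slc25a12, Slc25a11, Slc3a2 and Slc16a1 and up for Slc8a3, Slc1a2 and Slc5a3, while for Slc7a5 the mutant is higher by 0.21 in pair 3 and lower in the other 2 pairs.

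Amino acid carriers split evenly, with 5 of 10 lower and 5 higher and a median of 0.019. Slc3a2 encodes the heavy chain that brings several amino acid exchangers to the cell surface, and Slc7a5, the large neutral amino acid exchanger, is one of its light chains. Slc3a2 read 10.34, 11.03 and 10.76 in wild type and 9.99, 10.84 and 10.68 in the mutant, with the mutant lower in every pair (-0.20 ± 0.13, adjusted p = 0.691). Slc7a5 read 9.26, 11.29 and 9.86 in wild type and 8.72, 10.83 and 10.08 in the mutant. It was lower in pairs 1 and 2 and higher in pair 3, a difference of -0.26 ± 0.41 (adjusted p = 0.751). The cationic amino acid carrier Slc7a1 differed by -0.05 ± 0.05.

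The glutamate transporters Slc1a2 and Slc1a3 were higher in every pair. Slc1a2 read 10.37, 10.85 and 10.33 in wild type and 10.44, 11.03 and 11.19 in the mutant. Pair 3 held most of this difference (0.85, against 0.07 and 0.17), so the mean of 0.37 ± 0.42 was smaller than its spread (adjusted p = 0.730), and without pair 3 it was 0.12. The 4 other Slc1a2 probe sets read 0.42, 0.27, -0.03 and -0.12. Slc1a3 differed by 0.11 ± 0.07, with 2 of its 5 other probe sets higher and 3 lower.

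Other carriers of this group stayed within 0.15 of 0. The taurine carrier Slc6a6 read 10.37, 11.10 and 10.64 in wild type and 10.36, 11.28 and 10.74 in the mutant, a difference of 0.09 ± 0.10. Slc15a2, a proton-coupled peptide carrier, differed by 0.15 ± 0.16, and Slc36a4, a lysosomal and plasma membrane amino acid carrier, by 0.07 ± 0.06 and higher in all 3 pairs. The creatine carrier Slc6a8 differed by -0.09 ± 0.23 (-0.29, -0.14 and 0.16), and its second probe set was lower in all 3 pairs (-0.33 ± 0.23). Slc66a2 differed by -0.03 ± 0.06.

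Only 3 carriers of inorganic ions were in the class, and they differed from one another. Slc8a3, a sodium-calcium exchanger, had the largest positive difference of the 70. It read 9.90, 10.19 and 10.29 in wild type and 10.27, 10.78 and 10.46 in the mutant, higher by 0.37, 0.59 and 0.17. The mean of 0.38 ± 0.21, or 1.30-fold, had a 95% interval of 0.13 to 0.62 and did not pass (adjusted p = 0.479; 0.275 to 1 over the alternatives). Its other probe set averaged -0.01 ± 0.32, so this difference rests on 1 probe set.

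Slc12a7, a potassium-chloride cotransporter, read 8.73, 9.21 and 8.99 in wild type and 8.41, 9.08 and 8.87 in the mutant. The mutant was lower in every pair (-0.19 ± 0.11, adjusted p = 0.695), and a second Slc12a7 probe set was lower in every pair as well (-0.26 ± 0.17). Slc4a2, a chloride-bicarbonate exchanger, differed by 0.05 ± 0.29, with -0.23 in pair 1 and 0.35 in pair 3. The adaptor genes Slc9a3r1 and Slc9a3r2 carry an Slc symbol but encode scaffolds that anchor exchangers and channels. They differed by -0.02 ± 0.14 and 0.04 ± 0.44, and Slc9a3r2 had the widest spread of all 70 genes (-0.33, -0.08 and 0.53).

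Fuel carriers for monocarboxylates and sugars were few. Slc16a1, the lactate and pyruvate cotransporter, read 8.91, 9.74 and 8.97 in wild type and 8.54, 9.61 and 8.73 in the mutant. It was lower in every pair, by -0.25 ± 0.12 or 1.19-fold, and did not pass (adjusted p = 0.568). Bsg, which encodes basigin, the chaperone of this cotransporter, was also lower in every pair (-0.28 ± 0.25, adjusted p = 0.695). Its differences were -0.52, -0.03 and -0.28 in pairs 1 to 3. It read 9.24, 13.28 and 13.01 in wild type and 8.72, 13.25 and 12.73 in the mutant, so its level was far lower in pair 1. Slc13a5, a plasma membrane citrate carrier, differed by 0.08 ± 0.11.

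Among the 4 carriers of sugars and polyols, Slc5a3, the sodium-coupled myo-inositol carrier, was higher in every pair. It read 10.11, 10.87 and 10.39 in wild type and 10.27, 11.09 and 10.62 in the mutant. The difference of 0.20 ± 0.04, or 1.15-fold, did not pass (adjusted p = 0.614). A second Slc5a3 probe set was higher in every pair too (0.36 ± 0.23), while the third, at a lower level, read -0.05 ± 0.11. The glucose transporter relative Slc2a8 differed by -0.08 ± 0.07, Slc50a1 by 0.06 ± 0.15 and Slc45a4 by -0.04 ± 0.18.

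Genes placed by family under nucleotide sugars, sugar phosphates and acetyl-CoA numbered 11, with 6 lower and 5 higher. They lay between -0.12 and 0.15, with a median of -0.039. Slc35b2, which imports the sulfate donor PAPS into the Golgi, was the only one with the same sign in all 3 pairs (-0.15, -0.08 and -0.12). It read 8.03, 9.65 and 9.28 in wild type and 7.88, 9.57 and 9.16 in the mutant, a difference of -0.12 ± 0.04 (adjusted p = 0.750). Slc35b1, a nucleotide carrier of the endoplasmic reticulum, differed by -0.05 ± 0.16, and the CMP-sialic acid carrier Slc35a1 by 0.05 ± 0.10. Slc35e3 was highest at 0.15 ± 0.20, with a difference of exactly 0 in pair 1.

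The last 10 carriers, placed by family under nucleosides, vitamins, choline, urea and organic ions, ranged from -0.18 to 0.08. Slc29a1, the equilibrative nucleoside transporter, read 6.83, 9.27 and 9.45 in wild type and 6.65, 9.37 and 8.97 in the mutant. Its pair 1 level was far below the threshold that its mean passed, and its difference was -0.18 ± 0.29. Slc23a2, a sodium-coupled vitamin C carrier, was lower in all 3 pairs (-0.08 ± 0.08), as was its second probe set (-0.41 ± 0.47). The choline transporter-like genes Slc44a1 and Slc44a2 differed by 0.08 ± 0.28 and -0.004 ± 0.16. The carnitine carrier Slc22a5 differed by 0.03 ± 0.03, but its second probe set was lower in every pair (-0.24 ± 0.16). The lipocalin receptor Slc22a17 differed by -0.04 ± 0.19, the heme carrier Slc48a1 by -0.009 ± 0.12 and the monoamine carrier Slc29a4 by 0.07 ± 0.13.

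Probe sets that the rule did not use give a further reading of the same RNA. For 46 of the 70 genes there were 93 such probe sets, and 24 genes had none. Their differences ran from -0.66 to 0.42, and 0 passed limma's test. Of the 93, 14 had an unadjusted p under 0.05 in that test, a larger share than the 7.18% of all probe sets. These 14 were lower in the mutant, except for probe sets of Slc1a2 and Slc5a3. Of these 14, 3 were of Slc25a5 and 2 of Slc25a4. The sign was that of the chosen probe set for 56 of the 93. It was shared by 16 of the 22 whose wild-type mean was 8.5 or more and by 40 of the 71 below that level.

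**Figure D4:**
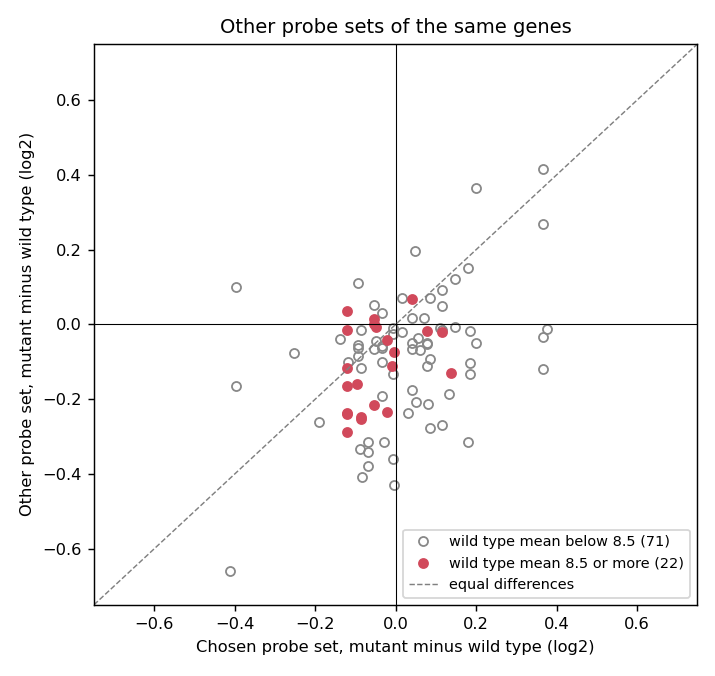
Each point is a probe set not used to choose the genes, with its difference, mutant minus wild type (log2), against that of the chosen probe set of the same gene; filled points have a wild-type mean of 8.5 or more. Points in the lower left or upper right quadrant share a sign, which holds for 56 of 93, and the lowest point is the second probe set of Slc31a1 at -0.66.

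Carriers named outside the Slc scheme were read in the same way. Of 28 measured, 19 were lower and 9 higher, with a median of -0.034. Nipal1, a magnesium transporter gene, passed (-1.72 ± 0.07, adjusted p = 0.0088, and 1 without the block). None of the others passed limma's test; over all genes 0.148% passed. At an unadjusted p under 0.05 there were 4 of the 28, Nipal1 included, against 7.35% of all genes; 11 of the 28 had a wild-type mean of 8.5 or more. Spns2, a sphingosine phosphate exporter, was higher in every pair (0.41 ± 0.14, adjusted p = 0.344), and the mitochondrial pyruvate carrier subunit gene Mpc1 lower in every pair (-0.31 ± 0.31, adjusted p = 0.718). Of 15 partners and adaptors of solute carriers, 8 were lower and 7 higher, with a median of -0.004, and 0 passed limma's test. In that test 4, or 26.7%, had an unadjusted p under 0.05, against 7.35% of all genes and 9.81% of genes at the 8.5 level. That level was reached by 10 of the 15. Of the 4, 3 were lower and 1 was higher. The higher one, Cltrn, rose in every pair (0.47 ± 0.15, adjusted p = 0.281) from a wild-type mean of 4.41. Stk39, a kinase that regulates cation-chloride cotransporters, read 8.56, 10.01 and 9.28 in wild type and 7.84, 9.54 and 9.13 in the mutant (-0.45 ± 0.28, adjusted p = 0.501).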

How the data were processed

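The deposited values are log2 expression, 1 per probe set and array, for which the submitters' processing notes name RMA without a version. Values were used as deposited. Of 45101 probe sets, 64 controls were left out. Of the 45037 tested, 34945 had 1 gene symbol, 932 several and 9160 none; a RefSeq gene table (GRCm38.p6) matched 34741 by identifier and changed 0 symbols. Promoter sequences are from RefSeq.

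Same-numbered arrays were paired: deviations from the mean of each genotype had correlations of 0.879, 0.818 and 0.746, above the limit of 0.1. Array levels, alike within pairs, enter these correlations, so they cannot show whether the pools shared a litter or dissection. Exactly equal values numbered 15406, 1185 and 1398 in pairs 1 to 3 and 0 between other arrays of the 2 genotypes; whether RMA was run per pair was not tested.

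Fits used limma 3.58.1 in R 4.3.3 (lmFit, eBayes, two-sided, Benjamini-Hochberg), with genotype and pair. They were tested on simulated data with changes of 1 or 2 (log2) either way. Every carrier's difference was smaller than these, so that test does not show how well changes of the carriers' size are found. The members, lists, motifs and tests were chosen with earlier results of these data known. The naming rule took members past the test, the 12 lowest and 8 highest differences among those with 1 sign in all 3 pairs, the 2 of highest wild-type mean in each substrate group, and the 3 genes on each side of the threshold; other members were named after their values were seen. Of 181 listed symbols, 19 were unmatched and are not analysed here. Alternatives covered the block, normalization, filter, prior, weights, pairs, thresholds, probe sets and membership.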

Additional observations from a re-analysis of the deposited data

How the results depend on the processing

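No carrier passed under any alternative run: without the replicate block, with quantile normalization, median centring, a level filter, trend and robust options, array weights, adjusted p under 0.1 or 0.01, other membership levels and groups, other probe set rules, or without replicate 1, 2 or 3. Dropping the replicate block changed no carrier's call, with 0 passing; in the 2 lists of other carriers and partners it changed that of Nipal1, so that 0 passed in place of 1. The count was also 0 with the level filter, which removed that probe set, and 0 without each replicate, where 1 residual degree of freedom remained. The median of the carriers ran from -0.043 (mean of a gene's probe sets, 37 genes) to 0.047 (without replicate 1). Group medians moved beyond their spread over pairs with a gene's mean probe set (amino acids -0.21, nucleosides and vitamins -0.052, nucleotide sugars 0.019), at a wild-type mean of 9.5 (inorganic ions 0.38, metal ions 0.12, sugars 0.20) and by the mutant mean (carboxylates 0.081); fewer or other genes entered there.

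Among the 29 genes of the naming rule, some differences turned sign, and the cause was not tested; other members were not listed in this way. Slc44a2 read 0.0094 with median centring and 0.038 with array weights, and Slc44a1 -0.0023 with weights. Leaving out a replicate gave -0.129 to 0.035 for Slc35b1, -0.089 to 0.070 for Slc44a2, -0.0075 to 0.14 for Slc50a1 and -0.083 to 0.168 for Slc44a1. Other probe sets turned sign for Slc25a12 (0.10), Slc25a5 (0.035), Slc35e1 (0.051), Slc30a1 (-0.11), Slc44a1 (-0.019, -0.053 and -0.049), Slc13a5 (-0.21), Slc6a6 (-0.093 and -0.28), Slc1a3 (-0.021, -0.27 and -0.015), Slc25a36 (-0.31), Slc39a6 (-0.13, -0.019 and -0.10), Slc5a3 (-0.049), Slc1a2 (-0.033 and -0.12) and Slc8a3 (-0.012). Signal over background is not given, so how far dim probe sets respond is unknown.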
